A study of Arabidopsis thaliana with 12 samples.

Results

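The genes described here handle sugar at the point where it enters plant metabolism. They are the sucrose synthases, sucrose-phosphate synthases (SPS) and phosphatases (SPP), invertases, hexokinases, fructokinases, the STP, SUC, SWEET and TMT sugar carriers, and the isomerase and kinase through which Xyl enters metabolism. The list held 59 genes, grouped by gene family. Of these, 19 had a probe set that the platform's annotation gives to that gene alone, and every value below is from those 19 probe sets among the 22746 tested. The other 40 genes had none, and 1 of them (AT1G06030) was found only on a probe set that is shared by several genes.

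The values come from 12 Affymetrix ATH1 arrays, which read polyadenylated RNA of *A. thaliana* through short 3′ probes grouped into probe sets. The samples were a habituated, root-derived cell suspension that needs no hormones, kept in the dark on full-strength MS medium with 87 mM Xyl as its only carbon source. Cells aged 7 d since the last sub-culture were given 1 mM Fru, Glc or Suc, or 1 mM Xyl as the control, for 1 h, and were then washed and frozen. There were 3 arrays for each sugar, numbered as replicates 1 to 3, and all came from suspension culture grown without light and outside any plant organ. All 4 groups, the control included, therefore held cells adapted to Xyl. Values are log2 RMA values, in which a difference of 1 is a doubling, and those of a group are always given in the order of replicates 1, 2 and 3. The methods call the 3 samples of a sugar biological replicates, but the labels do not say whether they were separate cultures, so the p-values measure the spread between these samples. In such bulk samples, fewer cells of a type and less RNA per cell cannot be told apart.

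As background, Suc that reaches a plant cell is either cleaved by invertase into Glc and Fru or by sucrose synthase into UDP-glucose and Fru. The hexoses are then phosphorylated, Glc mainly by hexokinases, of which hexokinase 1 is also a Glc sensor, and Fru mainly by fructokinases, while SPS and SPP run the reverse path and make Suc. STP carriers bring hexoses in with protons, SUC carriers do so for Suc, SWEET carriers let sugars pass along their gradient, and TMT carriers load hexoses into the vacuole. Xyl enters through xylose isomerase and xylulokinase.

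Coverage by the annotation was uneven over the families. A named probe set was present for 6 of 7 fructokinases, 3 of 4 SWEET genes, both TMT genes, 3 of 12 STP genes, 2 of 10 invertases, 2 of 7 genes of the SPS and SPP list and 1 of the 2 genes of Xyl entry. The sucrose synthases (0 of 6), hexokinases (0 of 4) and SUC carriers (0 of 5) had none, which left hexokinase 1 (AT4G29130), STP1 (AT1G11260) and the xylulokinase AT5G49650 without a value. Of the 19 genes, 10 had a mean over the 12 arrays above 4.81, the median of all probe-set means, and 9 lay at or below it, among them both genes of the invertase list and all 3 STP genes. Medians of the arrays ranged from 4.70 to 4.84. Of 31 marker genes of photosynthetic, root hair, endodermal, vascular and dividing cells, only 2 had a named probe set (*EXPA7* and *EXPA18*, expansins of root hairs), and both had means below the median of all probe sets.

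**Figure D1:**
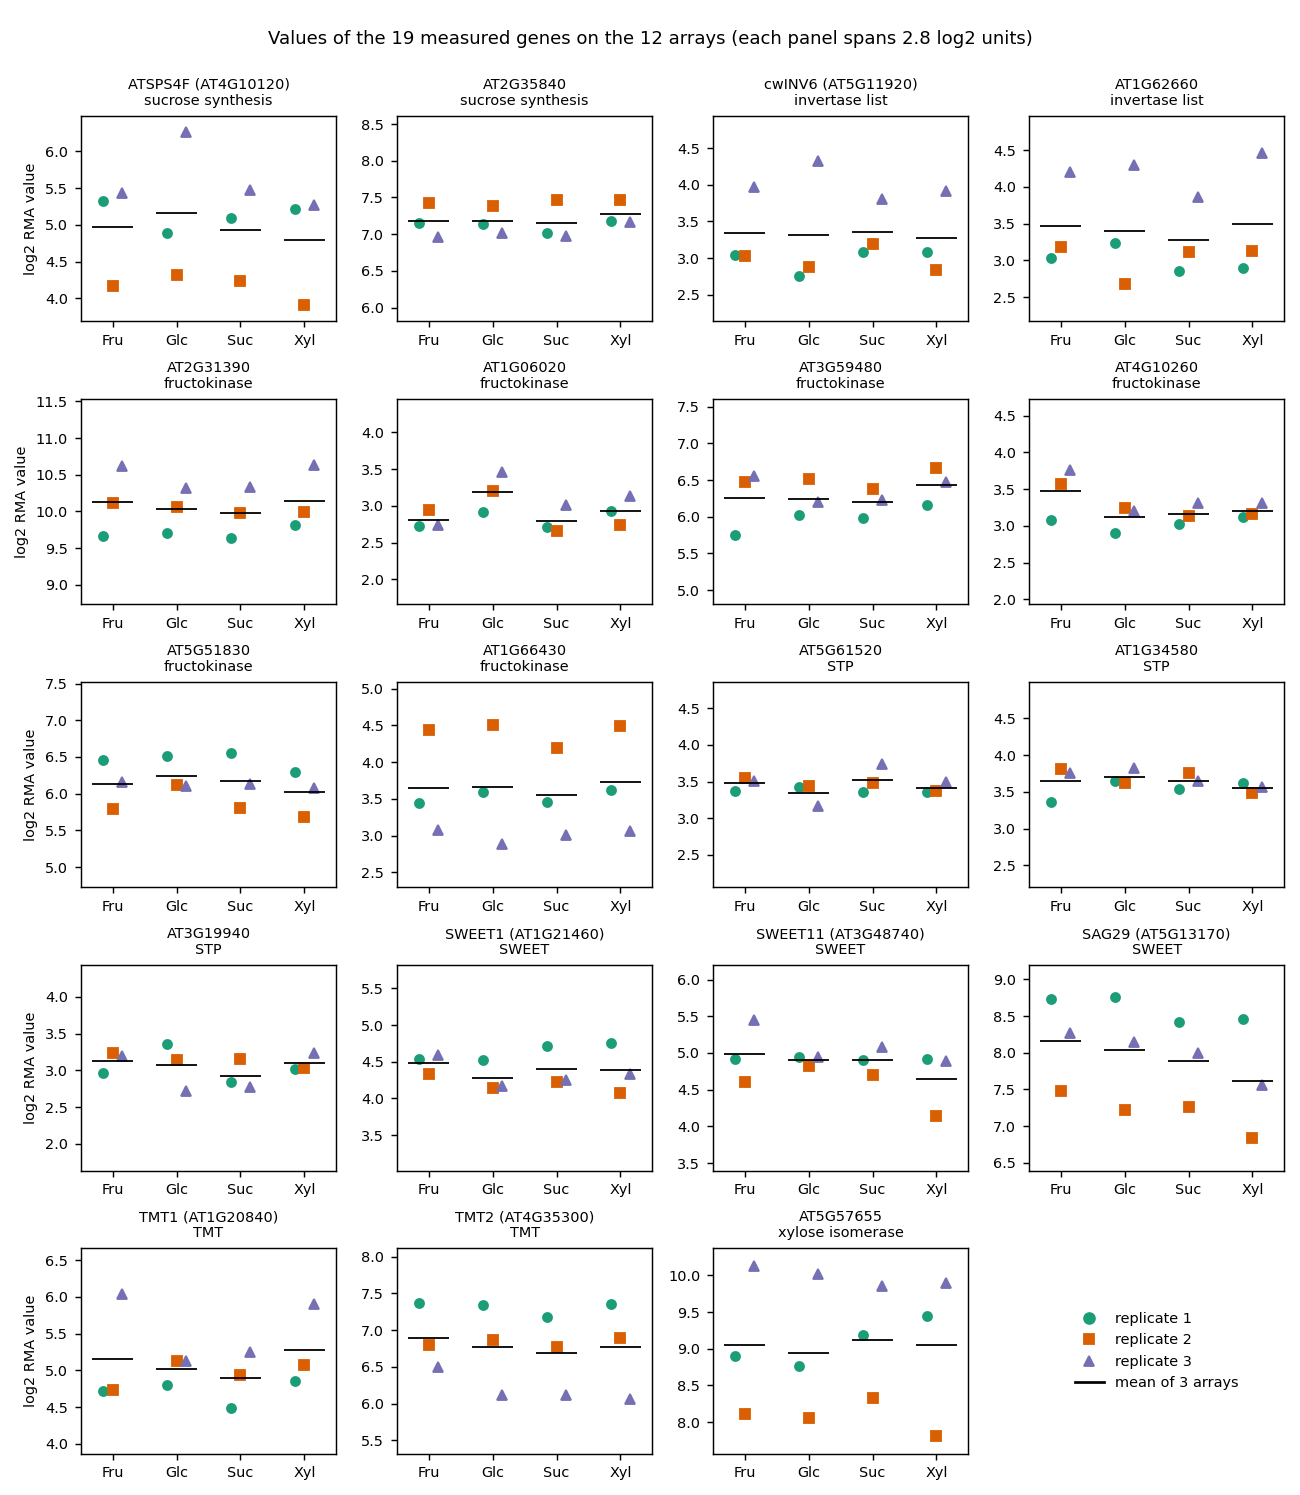
Log2 RMA values of the 19 measured genes, 1 panel per gene, with Fru, Glc, Suc and Xyl from left to right. Points are single arrays, marked by replicate number, and the bar is the mean of 3 arrays. Every panel spans the same number of log2 units, and in no panel do the 3 arrays of a sugar lie clear of the 3 Xyl arrays.

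Each sugar was first set against Xyl. None of the 19 genes passed the study's threshold of an unadjusted p under 0.002 in limma without a block, with 0 of 19 for each of Fru, Glc and Suc and for the mean of the 3 sugars. Over all probe sets, 0.0835% passed with Fru, 0.044% with Glc, 0.0659% with Suc and 0.101% with the mean of the 3 sugars. At an unadjusted p under 0.05 the count of the 19 was 0 for each of these 4 comparisons, where 2.57%, 2.11%, 2.04% and 2.49% of all probe sets passed, and the methods' t-test at the study's threshold gave 0 as well. The log2 fold changes of the 19 genes ran from −0.17 to 0.54 with Fru (median 0.07, against 0.00 over all probe sets), from −0.26 to 0.42 with Glc (median −0.07, against 0.01) and from −0.38 to 0.27 with Suc (median −0.04, against 0.00). That a gene missed the threshold is no evidence that its level was unchanged, and the 95% intervals without the block reached as far as −1.71 and 1.71.

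The arrays of 1 replicate number shared much of their deviation from the group means, and the replicate number as a block cut the median standard error of the 19 genes to 0.11, against 0.25 without it. The fit without the block left this shared variation in its residual, so its counts of 0 were reached at lower precision. With the block, 1 of the 19 genes passed with Fru, 1 with Glc, 0 with Suc and 1 with the mean of the 3 sugars, where 1.09%, 1.24%, 1.06% and 1.34% of all probe sets did. The gene was *SAG29* each time. No gene passed when the replicate number was fitted as a random block, where 0.55%, 0.55%, 0.576% and 0.637% of all probe sets passed. The random block applied 1 correlation (0.612) to all probe sets. For *SAG29* with Fru the standard error was 0.20 under it and 0.11 with the fixed block, so the threshold was missed at lower precision.

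**Figure D2:**
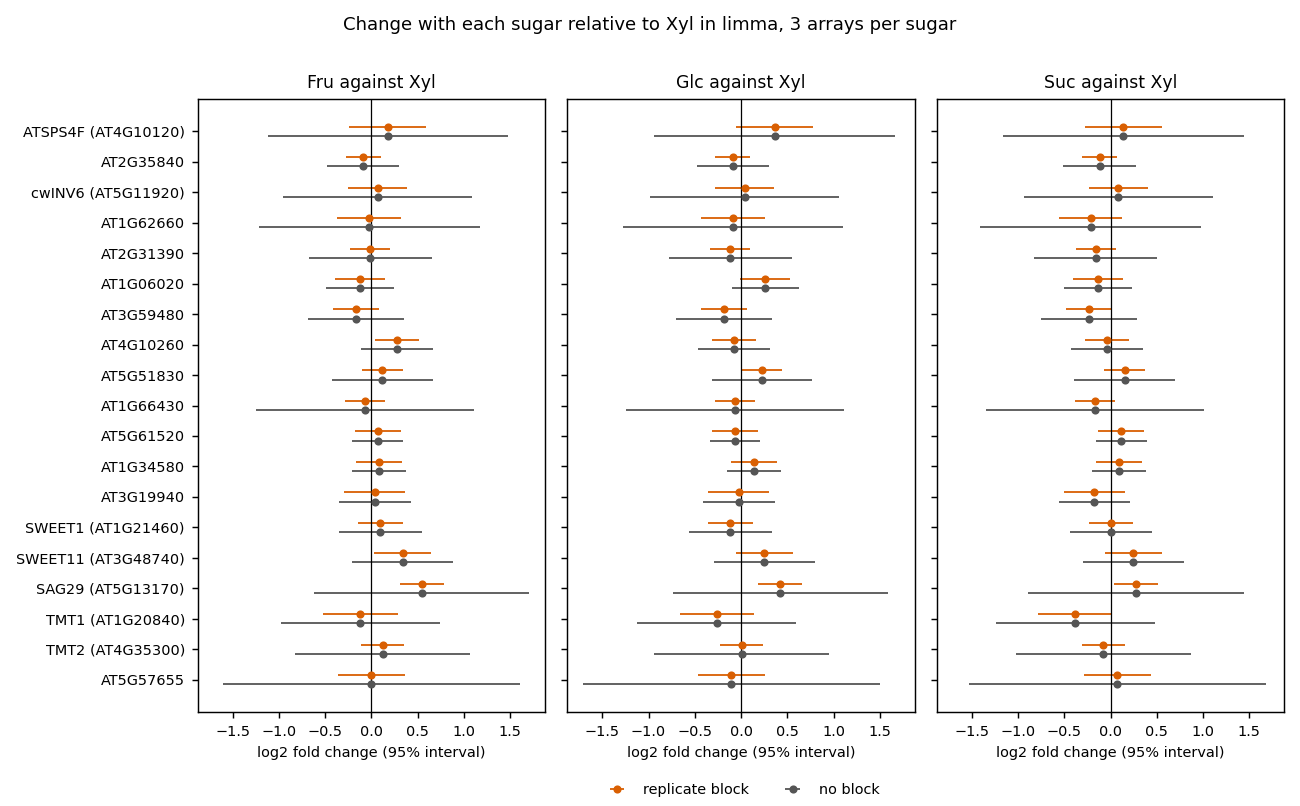
Log2 fold change of each measured gene against Xyl (x axis) with its 95% interval in limma, for Fru, Glc and Suc from left to right. Orange points are from the fit that blocks on the replicate number and grey points from the fit that does not. All grey intervals cover 0, and the orange intervals of *SAG29* lie above 0 in all 3 panels.

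*SAG29* (AT5G13170, also listed as SWEET15) encodes a sugar carrier of the SWEET family that is known for its rise in senescing leaves. It read 8.73, 7.48 and 8.27 on the Fru arrays, 8.76, 7.23 and 8.14 on the Glc arrays, 8.42, 7.26 and 8.0 on the Suc arrays, and 8.45, 6.83 and 7.57 on the Xyl arrays. Each group covered more than 1 log2 unit, the groups overlapped widely, and replicate 2 was the lowest array with every sugar. Set against the Xyl array of the same number, the level was higher by 0.27, 0.65 and 0.71 (log2) with Fru and by 0.30, 0.39 and 0.58 with Glc. With Suc the 3 differences were −0.04, 0.43 and 0.43. In limma with the replicate block, *SAG29* rose 1.46-fold with Fru (log2 fold change 0.54, 95% interval 0.31 to 0.78, unadjusted p = 0.000258, adjusted p = 0.102). It rose 1.34-fold with Glc (0.42, interval 0.19 to 0.66, unadjusted p = 0.00192, adjusted p = 0.159 in limma). For the mean of the 3 sugars the log2 fold change was 0.41 (interval 0.22 to 0.61, unadjusted p = 0.000468, adjusted p = 0.0916 in limma). With Suc the log2 fold change was 0.27 (interval 0.04 to 0.51), which missed the threshold (unadjusted p = 0.0261, adjusted p = 0.388 in limma). The difference between Suc and Fru was tested directly and missed it too (−0.27, unadjusted p = 0.0289, adjusted p = 0.386 in limma with the block). None of the adjusted p-values was under 0.05. Without the block the unadjusted p in limma was 0.323 for Fru, 0.436 for Glc and 0.611 for Suc, and it was 0.0203, 0.0586 and 0.2 under a random block. The calls with the block depended on single arrays to unlike degrees, most of all with Glc. Leaving out 1 of the 12 arrays at a time, *SAG29* passed with Fru in 9 of 12 fits and failed without Fru replicate 2 or without Xyl replicate 2 or 3. Over these 12 fits its log2 fold change with Fru ran from 0.46 to 0.66, and the highest unadjusted p was 0.00273 in limma. With Glc *SAG29* passed in 2 of 12 (without Suc replicate 1 or Xyl replicate 1), and for the mean of the 3 sugars in 10 of 12 (not without Xyl replicate 2 or 3).

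*SWEET11* (AT3G48740), which works in phloem loading in leaves, read 4.91, 4.61 and 5.45 on the Fru arrays, 4.94, 4.82 and 4.94 on the Glc arrays, 4.91, 4.70 and 5.08 on the Suc arrays, and 4.92, 4.15 and 4.89 on the Xyl arrays. The Xyl array of replicate 2 was the lowest of the 12, and replicate 1 was nearly level over the 4 sugars. The log2 fold changes against Xyl were 0.34 with Fru, 0.25 with Glc and 0.25 with Suc, and none passed with or without the block (lowest unadjusted p = 0.0334 in limma, Fru with the block). *SWEET1* (AT1G21460), a Glc carrier of the plasma membrane, lay between 4.08 and 4.76 on the 12 arrays, and its log2 fold changes reached −0.11 with Glc.

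Of the genes that make Suc, *ATSPS4F* (AT4G10120), a sucrose-phosphate synthase, read 5.33, 4.16 and 5.43 on the Fru arrays, 4.89, 4.32 and 6.27 on the Glc arrays, 5.09, 4.23 and 5.47 on the Suc arrays, and 5.21, 3.91 and 5.26 on the Xyl arrays. Its range of 2.36 log2 units was the widest of the 19, and the Glc array of replicate 3 was its highest. With Glc the log2 fold change was 0.36 (95% interval −0.06 to 0.78 with the block). Without Glc replicate 1, which lay below the Xyl array of the same number, it was 0.65 with the block and passed the threshold (unadjusted p = 0.00173 in limma). The phosphatase AT2G35840 covered 0.51 log2 units over the 12 arrays, and its values with Fru, Glc and Suc were below Xyl in every replicate, by at most 0.20.

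The invertase list had 2 measured genes. AT1G62660 is a vacuolar enzyme, and *cwINV6* (AT5G11920), listed by its name as a cell wall invertase, is known as a fructan exohydrolase and not as an enzyme that cleaves Suc. *cwINV6* read 3.05, 3.02 and 3.98 on the Fru arrays, 2.76, 2.87 and 4.32 on the Glc arrays, 3.09, 3.19 and 3.80 on the Suc arrays, and 3.09, 2.84 and 3.91 on the Xyl arrays. AT1G62660 read 3.03, 3.18 and 4.21 on the Fru arrays, 3.24, 2.68 and 4.30 on the Glc arrays, 2.85, 3.12 and 3.86 on the Suc arrays, and 2.89, 3.13 and 4.47 on the Xyl arrays. In both, the arrays of replicates 1 and 2 stayed at or below 3.24, well under the median of all probe-set means, and all 4 arrays of replicate 3 lay above them. The changes of the pair with a sugar ran from −0.22 to 0.08 (log2), and the lowest unadjusted p was 0.197 in limma with the block.

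The fructokinases, which phosphorylate Fru, were the best covered family, and 0 of 6 passed with any sugar with or without the block. AT4G10260 had the largest log2 fold change of the 6 with Fru. It read 3.08, 3.57 and 3.76 on the Fru arrays, 2.90, 3.25 and 3.21 on the Glc arrays, 3.03, 3.13 and 3.31 on the Suc arrays, and 3.12, 3.16 and 3.31 on the Xyl arrays. The Fru arrays of replicates 2 and 3 were its 2 highest, whereas that of replicate 1 lay below its Xyl counterpart. The log2 fold change with Fru was 0.28 (95% interval 0.04 to 0.51 with the block, unadjusted p = 0.0242 in limma). Without single arrays and with no block it ran from 0.13 (without Fru replicate 3) to 0.47 (without Fru replicate 1). With the block it ran from 0.19 to 0.40. AT1G06020 read 2.73, 2.94 and 2.74 on the Fru arrays, 2.92, 3.20 and 3.46 on the Glc arrays, 2.71, 2.65 and 3.01 on the Suc arrays, and 2.93, 2.73 and 3.13 on the Xyl arrays. Its 2 highest values were on Glc arrays, and the log2 fold change with Glc was 0.26 (−0.01 to 0.53 with the block), or 0.13 without Glc replicate 3 and 0.40 without Glc replicate 1 (no block). Both probe sets lay far below the median of all probe-set means.

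AT5G51830 read 6.46, 5.79 and 6.16 on the Fru arrays, 6.51, 6.11 and 6.10 on the Glc arrays, 6.56, 5.81 and 6.14 on the Suc arrays, and 6.29, 5.69 and 6.07 on the Xyl arrays. It was the only one of the 19 genes above Xyl in all 3 replicates with all 3 sugars, by 0.03 to 0.43 (log2), and it did not pass (lowest unadjusted p = 0.0435 in limma, Glc with the block). AT3G59480 read 5.75, 6.47 and 6.56 on the Fru arrays, 6.03, 6.51 and 6.21 on the Glc arrays, 5.98, 6.38 and 6.23 on the Suc arrays, and 6.16, 6.66 and 6.47 on the Xyl arrays. It was below Xyl in every replicate with Glc and with Suc, and the log2 fold change with Suc was −0.23 (−0.48 to 0.01 with the block). AT2G31390 lay between 9.64 and 10.63 on the 12 arrays, with log2 fold changes no further from 0 than −0.16. AT1G66430 read 3.45, 4.44 and 3.07 on the Fru arrays, 3.59, 4.51 and 2.88 on the Glc arrays, 3.46, 4.19 and 3.01 on the Suc arrays, and 3.63, 4.49 and 3.06 on the Xyl arrays, so that it repeated 1 pattern over replicates with every sugar.

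Among the hexose carriers of the STP family, AT1G34580 read 3.36, 3.81 and 3.75 on the Fru arrays, 3.64, 3.62 and 3.83 on the Glc arrays, 3.53, 3.76 and 3.65 on the Suc arrays, and 3.62, 3.49 and 3.56 on the Xyl arrays. AT3G19940 read 2.96, 3.23 and 3.20 on the Fru arrays, 3.36, 3.14 and 2.71 on the Glc arrays, 2.84, 3.15 and 2.77 on the Suc arrays, and 3.01, 3.03 and 3.24 on the Xyl arrays. AT5G61520 lay between 3.17 and 3.74. These 3 genes and the fructokinase AT1G06020 were the 4 of 19 in which no pair of replicate numbers lay apart, a count not made over all probe sets. The log2 fold changes of the 3 STP genes against Xyl ran from −0.18 to 0.14.

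The TMT carriers move hexoses into the vacuole. *TMT1* (AT1G20840) read 4.71, 4.73 and 6.04 on the Fru arrays, 4.80, 5.12 and 5.13 on the Glc arrays, 4.49, 4.94 and 5.26 on the Suc arrays, and 4.86, 5.07 and 5.90 on the Xyl arrays. Its Suc arrays were below Xyl in every replicate, by 0.37, 0.13 and 0.65, and the log2 fold change of −0.38 with Suc was the lowest of the 19 genes (95% interval −0.78 to 0.02 with the block, unadjusted p = 0.0603 in limma). Without single arrays and with no block it ran from −0.59 (without Xyl replicate 1) to −0.07 (without Xyl replicate 3). With the block it ran from −0.49 to −0.29. *TMT2* (AT4G35300) read 7.37, 6.79 and 6.50 on the Fru arrays, 7.35, 6.87 and 6.11 on the Glc arrays, 7.18, 6.77 and 6.12 on the Suc arrays, and 7.36, 6.89 and 6.06 on the Xyl arrays. Here replicate 1 was the highest and replicate 3 the lowest with every sugar, and the log2 fold changes lay between −0.08 and 0.12.

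AT5G57655, the xylose isomerase that turns Xyl into xylulose, read 8.91, 8.11 and 10.13 on the Fru arrays, 8.77, 8.06 and 10.02 on the Glc arrays, 9.19, 8.33 and 9.85 on the Suc arrays, and 9.45, 7.81 and 9.90 on the Xyl arrays. Replicate 3 was the highest and replicate 2 the lowest with every sugar. The log2 fold changes were −0.00036 for Fru, −0.10 for Glc and 0.07 for Suc, and the 95% interval with the block that reached furthest from 0, that of Glc, ran from −0.47 to 0.26. Without the block it was −1.71 to 1.50. Of the 4 arrays of replicate 1, the Xyl array was the highest, whereas in replicate 2 it was the lowest.

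In no case did the 3 arrays of a sugar all lie above or all below the 3 Xyl arrays (0 of 19 for each sugar). Over all probe sets, 4.14% lay above and 2.63% below with Fru, 3.68% and 2.59% with Glc, and 2.95% and 3.26% with Suc. Within replicates, 4 of 19 genes (21.1%) were above Xyl in all 3 with Fru and 1 (5.26%) below, where 16.0% of all probe sets were above and 16.4% below. With Glc, 4 were above (21.1%) and 2 below (10.5%), against 16.3% and 15.2% of all probe sets. With Suc, 1 was above (5.26%, against 18.5%) and 7 were below (36.8%, against 19.4%). The 7 genes below Xyl were the phosphatase AT2G35840, the invertase AT1G62660, *TMT1* and the fructokinases AT2G31390, AT1G06020, AT3G59480 and AT1G66430. In replicate 2 the difference was only −0.0021 in AT2G31390 and −0.0074 in both AT2G35840 and AT1G62660. The probe sets of AT1G62660, AT1G06020 and AT1G66430 lay below the median of all probe-set means. None of these 7 passed the test with Suc, and the 3 sugars share their Xyl arrays, so that these counts are no independent measurements.

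The sugars were also set against one another. In limma without the block, 0 of 19 genes passed the threshold of 0.002 between Fru and Glc, between Suc and Glc, or between Suc and Fru, where 0.022%, 0.0572% and 0.0044% of all probe sets did. With the block the counts were again 0 of 19, where 0.44%, 0.637% and 0.585% passed. At an unadjusted p under 0.05 without the block, 1, 1 and 0 genes passed, against 1.66%, 1.48% and 1.77% of all probe sets, and the methods' t-test at the study's threshold gave 0 of 19 in each. With the block 2, 1 and 2 genes had an unadjusted p under 0.05 (lowest 0.0062, 0.0070 and 0.012 in limma). Of all 22746 probe sets, 2040, 1746 and 2578 did. The fructokinases stood nearest to the threshold. For AT1G06020 the log2 difference was −0.39 between Fru and Glc (95% interval −0.76 to −0.02, unadjusted p = 0.0387, adjusted p = 1 in limma), and −0.40 between Suc and Glc (−0.77 to −0.04, unadjusted p = 0.0347). For AT4G10260 it was 0.36 between Fru and Glc (−0.03 to 0.75) and −0.32 between Suc and Fru (−0.71 to 0.07). These intervals are without the block. Under the random block the interval between Fru and Glc was 0.11 to 0.60 for AT4G10260 (unadjusted p = 0.00773, adjusted p = 0.759 in limma). For AT1G06020 it was −0.66 to −0.12 (unadjusted p = 0.00903, adjusted p = 0.759 in limma). Without Fru replicate 1, AT4G10260 passed with the block in both comparisons, at 0.48 (unadjusted p = 0.00096 in limma) between Fru and Glc and at −0.44 (unadjusted p = 0.00178 in limma) between Suc and Fru. Over the 19 genes, the 95% intervals without the block reached −1.50 and 1.71 between Fru and Glc, and −1.53 and 1.78 between Suc and Glc. With the block they reached −0.66 and 0.59 between Fru and Glc, and −0.67 and 0.54 between Suc and Glc. Differences of over 1 log2 unit thus lay within the intervals of the most variable genes only in the fit without the block.

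Most of the variation in these genes lay between replicate numbers and not between sugars. The median share of a gene's sum of squares between the 3 replicate numbers was 83.3% over the 19 genes (range 11.2% to 97.3%), against 54.0% over all probe sets. The share between the 4 sugars had a median of 10.5% (range 0.39% to 49.0%), against 14.2%. In 16 of 19 genes the replicates took the larger share, and the 3 others were the fructokinase AT1G06020 and the STP genes AT5G61520 and AT3G19940. This count was not made over all probe sets, whose medians also put the replicates above the sugars. In 14 of 19 genes (73.7%) the replicates took more than all else together, as they did in 53.1% of all probe sets. The 12 arrays of a gene covered a median of 1.00 log2 units, against 0.72 over all probe sets.

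**Figure D3:**
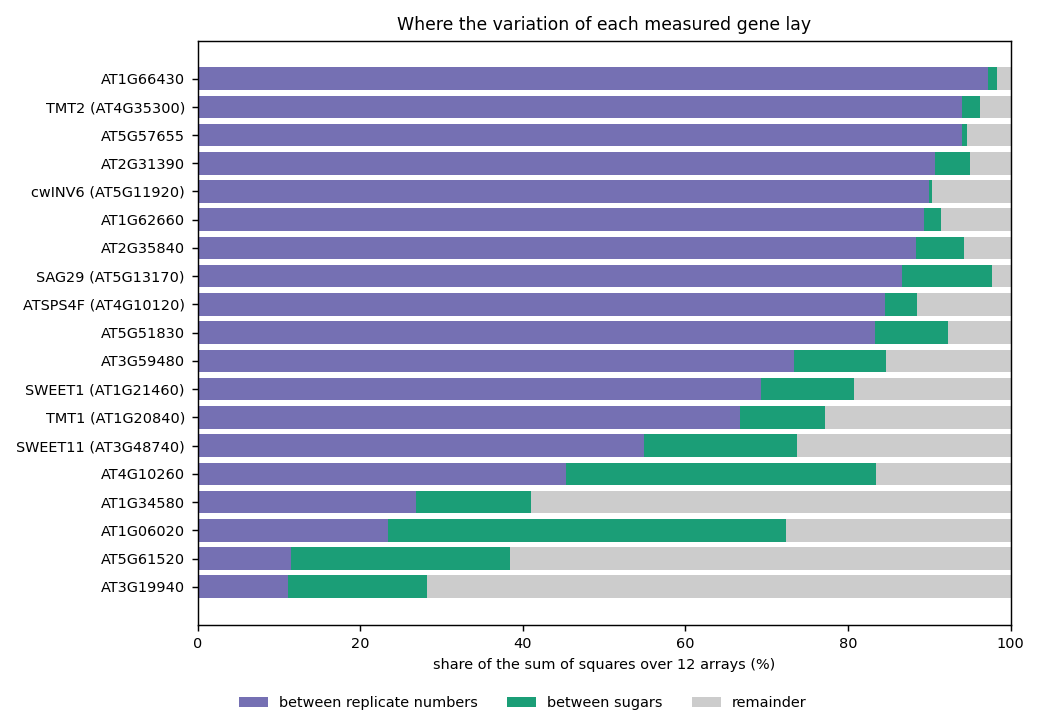
Share of each gene's sum of squares over the 12 arrays (x axis, percent) that lay between the 3 replicate numbers, between the 4 sugars and in the remainder. Genes are ordered by the share between replicates, which ran from 97.3% in AT1G66430 to 11.2% in AT3G19940.

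All 4 arrays of replicate 3 lay apart from the other 8 in 7 of 19 genes (36.8%), 5 higher and 2 lower, where 26.7% of all probe sets did so (12.6% higher and 14.1% lower). Among probe sets above the median of all means the share was 40.5%, with 4 of 10 of the genes. The xylose isomerase AT5G57655 was higher in replicate 3 than in replicates 1 and 2 by 1.40 on the log2 scale, the invertase AT1G62660 by 1.20 and *cwINV6* by 1.01, *TMT1* by 0.74 and the fructokinase AT2G31390 by 0.60. *TMT2* and the fructokinase AT1G66430 were lower in replicate 3, with differences of −0.87 and −0.96. The xylose isomerase thus differed by 2.63-fold between replicate 3 and the others, more than any of the 19 genes did between a sugar and Xyl. For *cwINV6* and AT1G62660 no fold is given, as their probe sets were dim in replicates 1 and 2 and the values carry no detection call. *TMT1* and *TMT2*, which belong to 1 family, went opposite ways. For *TMT1* the gap was narrow, as its lowest array of replicate 3 (Glc, 5.1300) lay just above the highest of the other 8 (Glc of replicate 2, 5.1237).

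Replicates 1 and 2 lay apart from each other in 12 of 19 genes (63.2%), against 28.5% of all probe sets. In replicate 2, *SAG29* was below replicate 1 by 1.39, AT5G57655 by 1.00 and *ATSPS4F* by 0.98 on the log2 scale, while AT1G66430 was above it by 0.87. In 5 genes (AT2G31390, AT1G66430, *SAG29*, *TMT2* and AT5G57655) all 3 replicate numbers lay apart from one another. This was not counted over all probe sets, so it is not read as a trait of these genes. Within these 5 genes the 4 arrays of a replicate number covered between 0.12 log2 units (*TMT2* in replicate 2) and 0.71 (*SAG29* in replicate 3). What the replicates differed in was not tested, as the labels give no date, batch or culture for them.

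**Figure D4:**
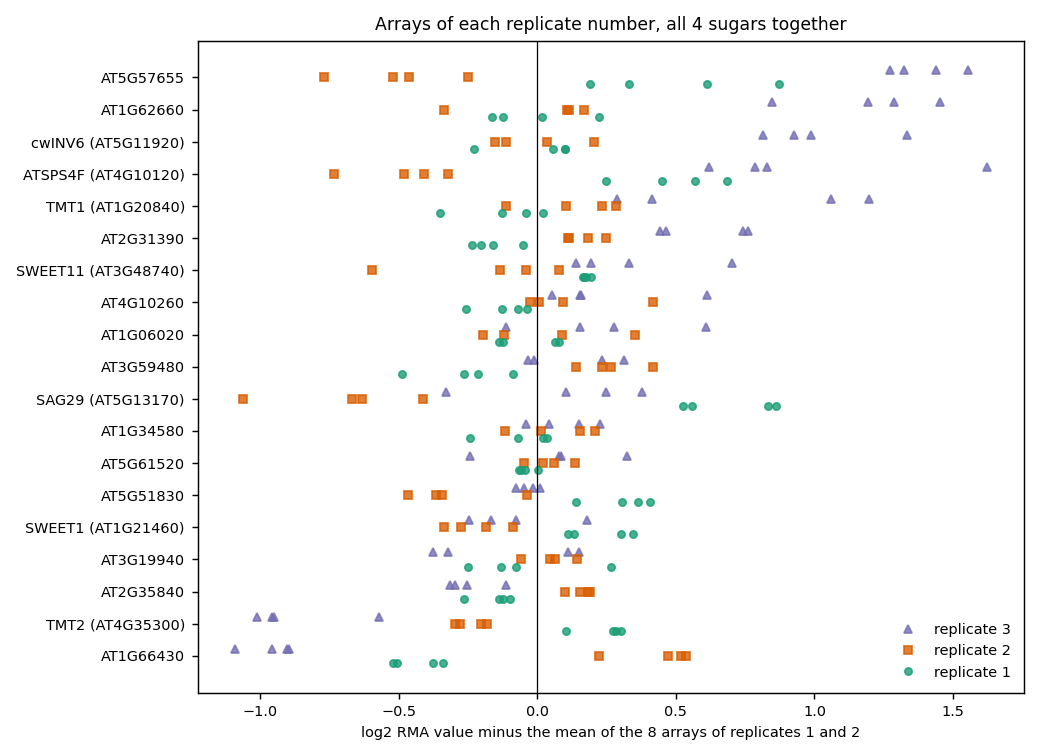
Each array's log2 RMA value minus the mean of the 8 arrays of replicates 1 and 2 (x axis), 1 row per gene, with all 4 sugars together. Marker shape and colour give the replicate number. Rows run from AT5G57655, where replicate 3 was highest above the others, to AT1G66430, where it was furthest below.

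Further genes of the same pathways were taken from a list of 71, of which 25 had a named probe set. In limma 0 of 25 passed the threshold in any of the 7 comparisons, with or without the block, and at an unadjusted p under 0.05 without the block the count was 0 or 1 of 25 in each, where 1.48% to 2.57% of all probe sets passed. *SWEET7* (AT4G10850), another carrier of the SWEET family, read 2.84, 2.77 and 2.99 on the Fru arrays, 2.83, 2.87 and 3.06 on the Glc arrays, 2.84, 3.10 and 2.89 on the Suc arrays, and 2.62, 2.64 and 2.71 on the Xyl arrays. All 9 sugar arrays lay above the 3 Xyl arrays, far below the median of all probe-set means, and the mean of the 3 sugars minus Xyl was 0.25 (log2, unadjusted p = 0.0184, adjusted p = 1 in limma). It was 1 of 25 to lie above Xyl with each sugar, where the shares of all probe sets were 4.14% (Fru), 3.68% (Glc) and 2.95% (Suc). Under Suc 3 of 25 lay below Xyl, *SWEET6*, *SWEET9* and *F2KP*, the enzyme that sets fructose 2,6-bisphosphate, against 3.26% of all probe sets. *SWEET6* and *SWEET9* were dim, with means of 3.13 and 3.17 over the 12 arrays. In *F2KP* the gap was narrow, from 6.1968 (Suc of replicate 2) to 6.2265 (Xyl of replicate 2). Here too the replicates took the larger part of the variation, with a median share of 84.7% over the 25 genes. *SWEET10* (AT5G50790) lay between 5.05 and 5.52 on the 4 arrays of replicate 2, and between 8.39 and 9.05 on the arrays of replicates 1 and 3.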

How the data were processed

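ATH1 arrays measured RNA of 12 cell culture samples adapted to Xyl, 3 for each of Fru, Glc, Suc and Xyl. The deposited values are log2 RMA values for 22810 probe sets, held by 2 files in identical form. RMA corrects the background, brings all arrays to 1 distribution and summarises probes on the log2 scale, so that a shift shared by all genes would be removed. According to the submitters' processing notes the tools were RMA, limma and Affymetrix Expression Console, and for their versions the sources used here give nothing. The authors' deposited log2 fold changes, p-values, adjusted p-values and log odds of their own comparisons were not used.

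Without the 64 control probe sets, 22746 were tested. Each sugar was compared with Xyl and with the other sugars in limma 3.58.1 (R 4.3.3), in 1 fit over the 4 groups with no block and 8 residual degrees of freedom. A gene was called at an unadjusted p under 0.002, the methods' threshold, with Benjamini-Hochberg adjusted p over all probe sets beside it. An exact permutation test of 3 arrays against 3 cannot go below p = 0.1 and was not used. The fits were tested on simulated data. Precision is limited by the number of arrays, which have no read depth.

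The replicate numbers of the labels were checked as pairs. For each of 18 pairs of arrays that share a number, the deviations from their groups' means were correlated (lowest r 0.772, median 0.868, highest 0.938). A cell solution divided over flasks before treatment is described in the methods. Fits with the number as a block had 6 residual degrees of freedom, and a random block had a correlation of 0.612.

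Of all probe sets, 13513 were annotated with 1 gene, 503 with several and 8794 with none. Symbols came from a reference table of TAIR10.1, and no coordinates are given, since the array files name no assembly. All 19 genes had a single probe set. The members and lists were chosen with earlier results of these data known. Values on each array are given for genes past the threshold in any comparison, the 3 lowest p-values per sugar with and without the block, the 6 largest differences of replicate 3, and AT5G57655. Alternatives were the fixed and random block, the methods' t-test, a trended robust variance, centred arrays, array weights, leaving out dim probe sets, each array left out and replicate 3 left out. The block together with the filter, or with each array left out, was chosen after seeing the data.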

Additional observations from a re-analysis of the deposited data

How the results depend on the processing

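The count of 0 of 19 genes past the threshold held in all 7 comparisons under the methods' t-test, the random block, a trended robust variance, array weights, centred arrays, the filter on dim probe sets, and without replicate 3 with or without the block. The t-test, trended variance, array weights, centring and filter were run without the block. The variation between replicate numbers stayed in their residuals, so their counts say little about the calls with the block. Without replicate 3 only replicates 1 and 2 were left for each sugar, so a count of 0 there says little too. With the replicate block the count was 1 with Fru, 1 with Glc and 1 with the mean of the 3 sugars, and with the block and the filter on dim probe sets together 1 with Fru, 0 with Glc and 1 with the mean. The block changed no other call. Shares of all probe sets are given only for the fits with no block, the fixed block and the random block. The counts under the other settings have no such share beside them. Leaving out single arrays gave 0 genes each time without the block, and 0 to 1 with it for Fru, Glc and the mean against Xyl, between Fru and Glc and between Suc and Fru. The gene was *SAG29*, except for *ATSPS4F* (Glc, without Glc replicate 1, log2 fold change 0.65) and AT4G10260 (0.48 and −0.44 in the comparisons of Fru with Glc and of Suc with Fru, without Fru replicate 1). The filter on dim probe sets left 10 genes, of which 4 had the arrays of replicate 3 apart. Without single arrays and with no block, *SAG29* ranged from 0.15 to 0.96 with Fru, from 0.03 to 0.84 with Glc and from −0.12 to 0.69 with Suc, and *SWEET11* from 0.09 to 0.53 with Fru, from −0.0020 to 0.38 with Glc and from −0.0051 to 0.38 with Suc (log2), the lowest each without Xyl replicate 2. With the block, *SAG29* ranged from 0.46 to 0.66 with Fru, from 0.34 to 0.54 with Glc and from 0.20 to 0.39 with Suc. *SWEET11* then ranged from 0.19 to 0.48 with Fru, from 0.11 to 0.39 with Glc and from 0.10 to 0.39 with Suc. AT5G57655 changed sign most often: 0.052 with Fru in centred arrays, −0.065 with Suc under array weights, and from −0.62 to 0.47 with Fru, from −0.73 to 0.34 with Glc and from −0.55 to 0.49 with Suc without single arrays. With the block these ranges were −0.19 to 0.24, −0.29 to 0.14 and −0.11 to 0.31, the sign turning without Fru replicate 1 (0.12) or Xyl replicate 1 for Fru, without Glc replicate 1 (0.038) or Xyl replicate 1 for Glc, and without Suc replicate 2 (−0.043) or Xyl replicate 2 for Suc. The cause of these shifts was not tested beyond the arrays named. No gene had a further probe set, so that alternative was not run. Dim probe sets, 9 of the 19, and 3 arrays per sugar limit what could be detected, and 40 of the 59 listed genes had no named probe set.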
